A study of Mus musculus with 6 samples.

Results

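Egr3 and 9 further immediate early genes were examined in captured, methylated DNA of the mouse heart: Egr1, Egr2, Egr4, Fos, Fosb, Jun, Junb, Nr4a1 and Ier2. Members were the regions of the deposited table whose gene symbol is exactly 1 of these 10, and 6 of the 10 genes have such a region, Fosb with 2 and the others with 1 each. These 7 regions are part of 101253 peaks among 213957 distinct regions. Egr4, Jun, Junb and Ier2 have no row and are absent. Egr3 was selected on its difference in read counts between P14 and P1, the smallest p of all regions, and the other 9 were chosen with results of that comparison known, so the differences between ages below describe the members and support no inference.

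The libraries came from ventricles of male C57BL/6 mice at postnatal day 14 (P14, 3 libraries) and postnatal day 1 (P1, 3 libraries). No agent, transgene or genetic change is named for either age, and the labels call the tissue left ventricle while the collection protocol describes whole ventricles with the septum and without atria. Sonicated DNA was enriched with a methyl-CpG binding protein and sequenced (MBD-seq), which gives the number of captured reads in a region and no methylation level per CpG. The labelled tissue was not checked against expression markers, because DNA capture does not read expression. In such bulk tissue a change in methylation per cell and a change in the mix of cell types cannot be told apart.

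Immediate early genes are transcribed within minutes of a growth, stress or neuronal stimulus, without new protein synthesis, from promoters at which serum response factor (SRF), its ternary complex partners and CREB are already bound. The EGR proteins are zinc finger transcription factors that bind GC-rich DNA, FOS and JUN proteins pair to form the AP-1 factor, and NR4A1 (Nur77) is an orphan nuclear receptor. In the heart these genes are known for their rapid response to stretch and to hypertrophic stimuli. Promoters rich in CpG are, as a rule, free of methylation in most tissues, while methylation inside genes is common.

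The libraries differed as a whole, and this touches every value below. They held 16284216 to 21512072 reads, and peaks took 31.31% of reads in P14 replicate 1 (95% Wilson interval 31.29% to 31.33%, counting error only), 18.39% and 16.99% in the other P14 libraries, and 11.58% to 13.39% at P1. P1 replicate 1 had 2392 peaks without a read, against 37 or fewer in the other P1 libraries and 125 or fewer at P14. Levels are therefore given as CPM, the reads of a peak per 1000000 reads in peaks after TMM scaling, and 2 measures taken within each library stand beside them: the read density of a peak over that of the stretches that adjoin it, and its percentile by density among all peaks of that library.

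Promoters are shown first, because those at hand hold many CpG sites and yet lie outside the captured peaks. RefSeq promoter windows (GRCm38.p6) were at hand for 7 of the 10 genes, in 11 windows, 5 of them at Egr2, several of which overlap. None was at hand for Egr3, Egr1 or Ier2, so nothing is said of their promoters. Each window here is the 250 bases before an annotated start, written 5′ to 3′ in the direction of the gene, with each CpG in capitals. The 5 printed begin with the window of Egr2 nearest its peak (chr10:67537680-67537929, + strand). Next are those of the other members with both a peak and a window, Fos (chr12:85473640-85473889, + strand), Fosb (chr7:19310046-19310295, - strand) and Nr4a1 (chr15:101266596-101266845, + strand). Last is that of Jun (chr4:95052223-95052472, - strand), a member without a peak.
Egr2: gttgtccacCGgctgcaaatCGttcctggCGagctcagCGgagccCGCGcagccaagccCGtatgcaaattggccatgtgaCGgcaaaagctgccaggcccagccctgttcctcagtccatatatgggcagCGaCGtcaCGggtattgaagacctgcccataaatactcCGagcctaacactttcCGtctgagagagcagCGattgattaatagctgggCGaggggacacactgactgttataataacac
Fos: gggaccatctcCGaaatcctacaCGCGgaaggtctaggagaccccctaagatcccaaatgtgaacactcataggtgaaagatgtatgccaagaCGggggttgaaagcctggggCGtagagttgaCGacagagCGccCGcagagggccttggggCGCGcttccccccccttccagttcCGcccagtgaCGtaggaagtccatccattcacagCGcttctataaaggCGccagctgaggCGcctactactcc
Fosb: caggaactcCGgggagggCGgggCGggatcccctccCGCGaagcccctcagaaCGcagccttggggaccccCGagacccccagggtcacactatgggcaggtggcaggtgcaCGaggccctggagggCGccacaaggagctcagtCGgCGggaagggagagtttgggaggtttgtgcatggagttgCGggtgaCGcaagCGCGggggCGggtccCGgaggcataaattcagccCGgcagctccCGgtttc
Nr4a1: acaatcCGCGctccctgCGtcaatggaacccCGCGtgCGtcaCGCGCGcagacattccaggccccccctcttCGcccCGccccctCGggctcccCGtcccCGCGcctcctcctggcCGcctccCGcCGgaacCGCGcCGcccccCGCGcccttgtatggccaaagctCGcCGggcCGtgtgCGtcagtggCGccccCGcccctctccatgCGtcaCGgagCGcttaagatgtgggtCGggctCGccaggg
Jun: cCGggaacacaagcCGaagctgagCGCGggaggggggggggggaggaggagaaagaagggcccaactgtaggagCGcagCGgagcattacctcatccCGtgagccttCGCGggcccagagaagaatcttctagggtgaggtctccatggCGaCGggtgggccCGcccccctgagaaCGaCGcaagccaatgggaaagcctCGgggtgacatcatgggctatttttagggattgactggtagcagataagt

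The 11 windows held 15 to 34 CpG sites, the most at Nr4a1, against a median of 6 over 32851 RefSeq windows, of which 27.3% hold 15 or more. None of the 11 overlapped a peak, as against 7.3% of all windows and 1.3% of the 8970 windows with 15 or more CpG sites on the chromosomes of the table, so their position outside peaks is the common one for promoters of this kind. Every one of the 11 lay in a stretch between peaks. At the printed windows the nearest edge of the gene's own peak was 1513 bases away at Egr2, 2111 at Fos, 2299 at Fosb and 2963 at Nr4a1. The cyclic AMP response element half-site TGACG, searched on both strands, was found in 8 windows of 6 genes (Egr2, Egr4, Fos, Fosb, Junb and Nr4a1), and in 17.77% of all windows. It holds a CpG itself, and Nr4a1 had 4 copies. The CArG box bound by SRF was found in 4 of the 5 Egr2 windows, which share it by overlap or carry their own copy, and in 1.47% of all windows. The full element TGACGTCA, which would contain the half-site on each strand, and the AP-1 motif TGANTCA, searched on both strands, were in none of the 11 (1.55% and 6.75% of all windows).

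All 7 member peaks lay inside the RefSeq span of their gene, as did 87.1% of 65935 pairs of a named peak and its gene. On GRCm38 the Egr3 peak (ENSMUSG00000033730) spans chr14:70078916-70080874 and covers 37.0% of the gene span, leaving 1599 bases at its low-coordinate end and 1739 at the other. The Egr1 peak (ENSMUSG00000038418, chr18:34862341-34864035) covers 45.2% of its span. The Egr2 peak (ENSMUSG00000037868, chr10:67539442-67541591) covers 27.8% and ends 597 bases before the end of the gene. The Fos peak (ENSMUSG00000021250, chr12:85476000-85476914) begins 2110 bases after the gene's start and ends 360 bases before its end. The Nr4a1 peak (ENSMUSG00000023034, chr15:101269808-101274600) is 4793 bases wide, wider than 99.7% of all peaks, and ends 195 bases before the gene does. Fosb (ENSMUSG00000003545) has a pair of peaks 53 bases apart, chr7:19306181-19306911 (region 1) and chr7:19306965-19307747 (region 2). The gene runs on the minus strand, so region 2 is the nearer to its start, by 2371 against 3207 bases. In Egr2, Fos and Nr4a1 the peak thus sits toward the 3′ end of the gene. Whether a peak is exonic, intronic or in a UTR was not assigned, since transcript structure was not used here.

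**Figure D1:**
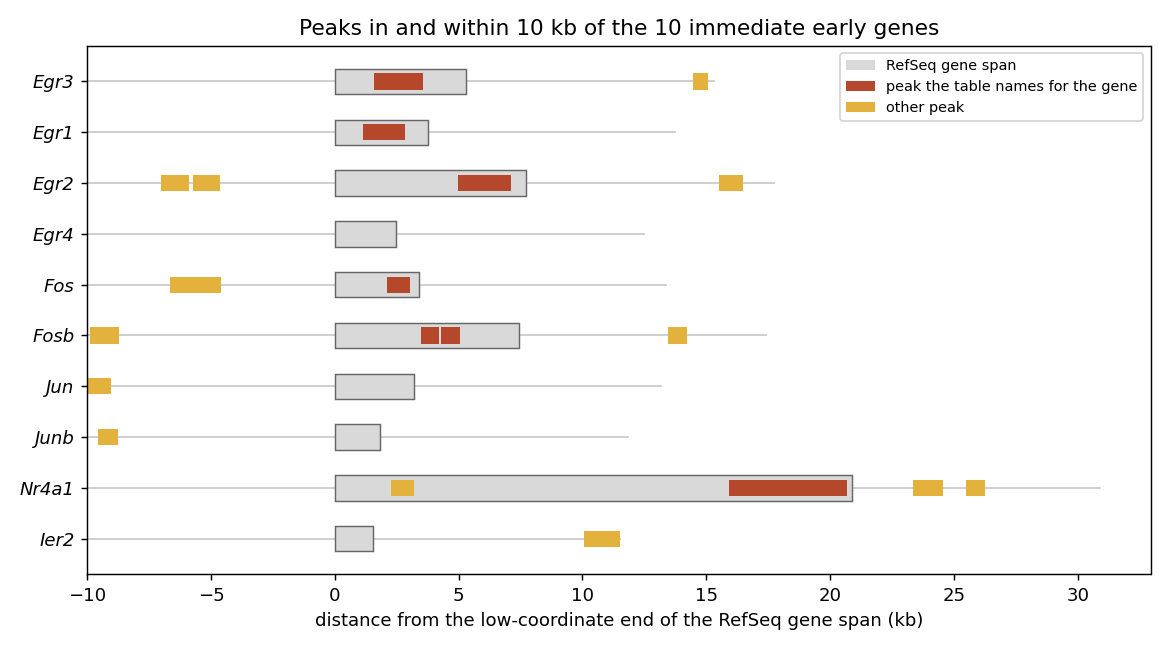
Map of the 10 genes, each drawn from the low-coordinate end of its RefSeq span in kb (grey bar), with 10 kb on each side. Peaks the table names for the gene are red and other peaks yellow. All 7 named peaks lie inside the spans, and Egr4, Jun, Junb and Ier2 hold none.

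The 3 EGR peaks had nearly the same CPM at P14 and very different CPM at P1. Their widths differ, and per kb the P14 means were 10.6 CPM at Egr3, 12.0 at Egr1 and 9.24 at Egr2. The Egr3 peak held 186, 78 and 44 reads in P14 replicates 1 to 3, against 5, 12 and 7 in P1 replicates 1 to 3. In CPM over the reads in peaks this was 25.88, 20.24 and 15.88 at P14, against 2.58, 5.42 and 3.21 at P1. Every P14 library lay above every P1 library, and the 24 reads of the 3 P1 libraries together (exact Poisson 95% interval 15.4 to 35.7, counting error only) set the precision. The means were 20.7 ± 5.01 CPM at P14 and 3.74 ± 1.49 CPM at P1 (SD, n = 3 each), a log2 change of 2.46 (SE 0.34) in the fit within peaks.

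Egr2, a regulator of peripheral myelination and hindbrain patterning, came next. Its peak held 172, 79 and 42 reads at P14, against 18, 19 and 22 at P1, or 23.93, 20.5 and 15.16 CPM at P14, against 9.27, 8.58 and 10.1 CPM at P1. The ages did not overlap here either, and the P1 libraries lay close together. The means were 19.9 ± 4.42 CPM at P14 and 9.32 ± 0.76 CPM at P1 (SD, n = 3 each), a log2 change of 1.11 (SE 0.27). Egr1, the member of the family most used as a marker of acute stimulation, did not share this. Its peak held 171, 65 and 57 reads at P14, against 38, 38 and 32 at P1, which scaled to 20.4 ± 3.47 CPM at P14 and 17.1 ± 2.44 CPM at P1 (SD, n = 3 each). P14 replicate 2, at 16.86 CPM, lay below P1 replicates 1 and 2, and the log2 change was 0.27 (SE 0.25).

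Among the AP-1 genes the ages overlapped. The Fos peak held 114, 45 and 27 reads at P14, against 15, 26 and 13 at P1. Scaled, this was 12.4 ± 3.13 CPM at P14 and 8.48 ± 2.96 CPM at P1 (SD, n = 3 each), with P1 replicate 2 (11.74 CPM) above P14 replicates 2 and 3. The log2 change was 0.58 (SE 0.32). At Fosb, region 1 held 29, 22 and 13 reads at P14, against 8, 7 and 6 at P1, the fewest of the 7, with a log2 change of 0.51 (SE 0.48). Region 2 held 93, 47 and 22 reads at P14, against 17, 26 and 12 at P1, with a log2 change of 0.37 (SE 0.33). The 2 regions belong to 1 gene and are no replicates of each other. The Nr4a1 peak had the most reads, 492, 256 and 123 at P14, against 125, 123 and 107 at P1, and 59.8 ± 13.3 CPM at P14 against 56.4 ± 7.67 CPM at P1 (SD, n = 3 each). Its log2 change of 0.09 (SE 0.23) was the smallest.

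**Figure D2:**
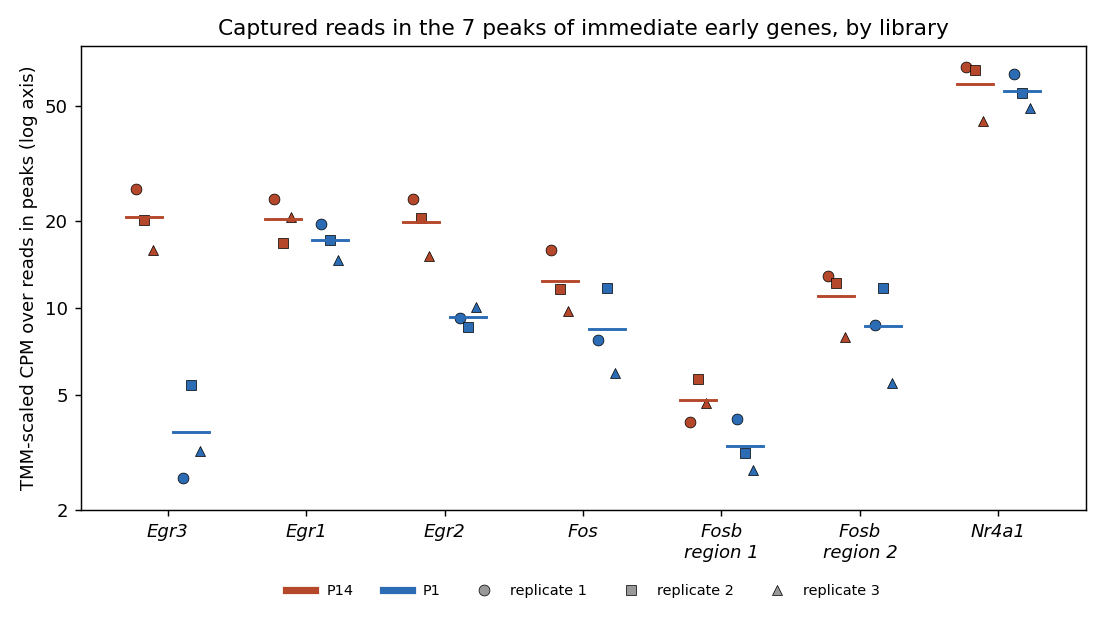
Each point is a library, in CPM on a log axis, for each of the 7 peaks, with P14 left of P1 and lines at the arithmetic mean of 3 libraries. The ages are apart at Egr3 and Egr2 and overlap at the other 5 peaks.

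All 7 log2 changes were positive in the fit within peaks, with a median of 0.51, where 49.2% of tested peaks were positive and the median was -0.01. Groups did not overlap, P14 higher, in 2 of the 7, against 4.77% of all tested peaks. With edgeR's quasi-likelihood fit over 96772 peaks, Egr3 and Egr2 among the 7 passed the threshold of 0.05 after adjustment, as did 0.105% of all tested peaks with a higher value at P14. Nothing is read from these counts, since the members were chosen with this comparison known. Neither call held without P14 replicate 1, where the log2 change was 2.27 (SE 0.38) at Egr3 and 0.97 (SE 0.30) at Egr2 and no peak of any gene passed. Nor did either hold with the share of reads in peaks as a covariate, at log2 changes of 2.03 and 0.77, where again no peak passed. That share did not overlap between the ages (16.99% to 31.31% at P14, 11.58% to 13.39% at P1). The fit therefore separates share from age poorly. The Egr2 call was also lost when any 1 of the P1 libraries, or P14 replicate 2, was left out, at log2 changes of 1.05 to 1.18.

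Over all 209063 regions, where the greater share of reads in peaks at P14 enters every value, the median log2 change of all peaks was 0.73 and 94.9% were positive. In that fit Egr3 had a log2 change of 3.23 (SE 0.47), Egr2 of 1.88 (SE 0.37), Fos of 1.34 (SE 0.44), Fosb of 1.23 (SE 0.43) in region 1 and 1.13 (SE 0.43) in region 2, Egr1 of 1.03 (SE 0.32) and Nr4a1 of 0.86 (SE 0.30). All 7 lay above the median of peaks, Fosb region 2, Egr1 and Nr4a1 by less than their SE. By edgeR's test 0 of the 7 and 0 of all regions (0.0%) had an adjusted p under 0.05. At an unadjusted p under 0.05 and a higher value at P14 there were all 7 members, as were 27.2% of the peaks in that fit, and DESeq2 called 2 members, Egr3 and Egr2, among 66 regions higher and 0 lower of 213957 (0.0308% higher). Without P14 replicate 1, edgeR called the same 2 members, among 353 regions higher (0.169%) and 2988 lower.

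**Figure D3:**
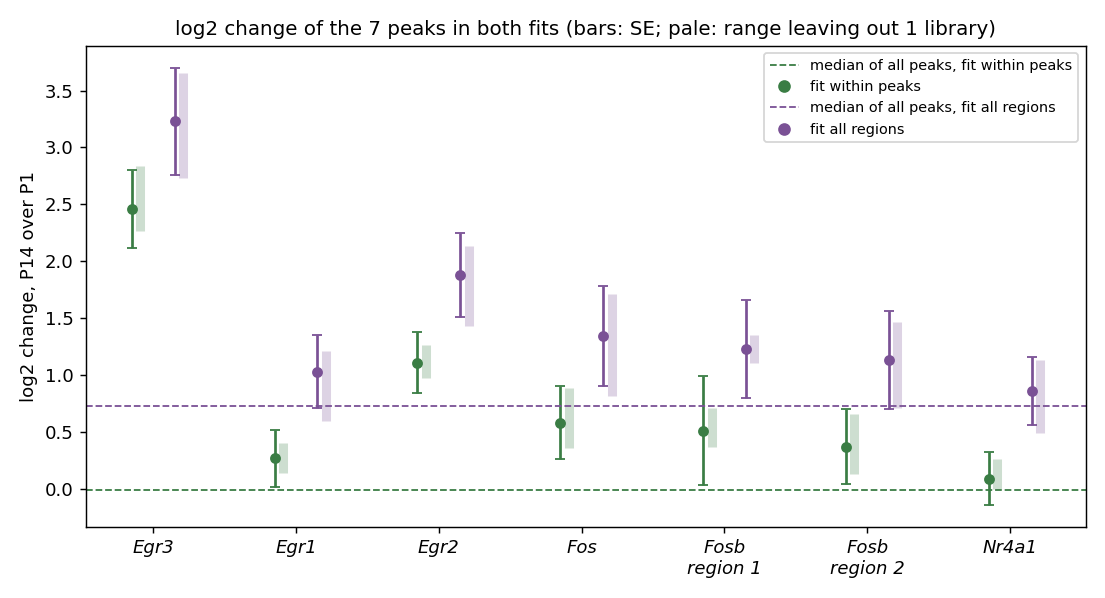
Points are log2 changes of P14 over P1 with SE bars, for the fit within peaks (green) and over all regions (purple). Pale bars give the range when each of the 6 libraries is left out, and dashed lines the median of all peaks in each fit, -0.01 and 0.73. Egr3 and Egr2 stand highest in both fits.

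Compared with the DNA beside them, the Egr3 and Egr2 peaks were not enriched at P1. The Egr3 peak had 11.5, 4.67 and 3.71 times the read density of its adjoining stretches in P14 replicates 1 to 3, against 0.33, 0.97 and 0.47 times in P1 replicates 1 to 3. It lay below its flanks in all 3 P1 libraries, as did 1.62% of 95582 peaks, so at P1 alone nothing marks this region as a peak. The Egr2 ratios were 7.69, 3.44 and 2.37 at P14, against 0.76, 0.91 and 1.11 at P1, close to the level of the flanks. The flanks themselves held 8.26, 8.52 and 6.05 reads per kb at P14 around Egr3, against 7.65, 6.32 and 7.53 at P1, and their ages overlapped. A region that enters a peak list only through its P14 reads had to differ between the ages, and no source used here says whether peaks were called per library or on pooled reads.

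The ratio of the median peak was itself higher at P14, at 3.48 ± 1.09, than at P1, at 1.91 ± 0.18 (SD, n = 3 each). Divided by the median peak of the same library, Egr3 stood at 1.79 ± 0.569 at P14 and 0.303 ± 0.146 at P1, and Egr2 at 1.22 ± 0.382 at P14 and 0.486 ± 0.071 at P1 (SD, n = 3 each). For Egr1 the values were 1.64 ± 0.45 at P14 and 1.3 ± 0.29 at P1, for Fos 2.06 ± 0.679 and 1.26 ± 0.437, and for Nr4a1 1.69 ± 0.316 and 1.55 ± 0.342, in the same order of ages (SD, n = 3 each). The ages overlapped in each of these 3 genes. Fosb region 2 reached 2.93 ± 0.911 at P14 and 2.2 ± 1.1 at P1, and Fosb region 1 1.22 ± 0.405 at P14 and 0.79 ± 0.173 at P1 (SD, n = 3 each).

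**Figure D4:**
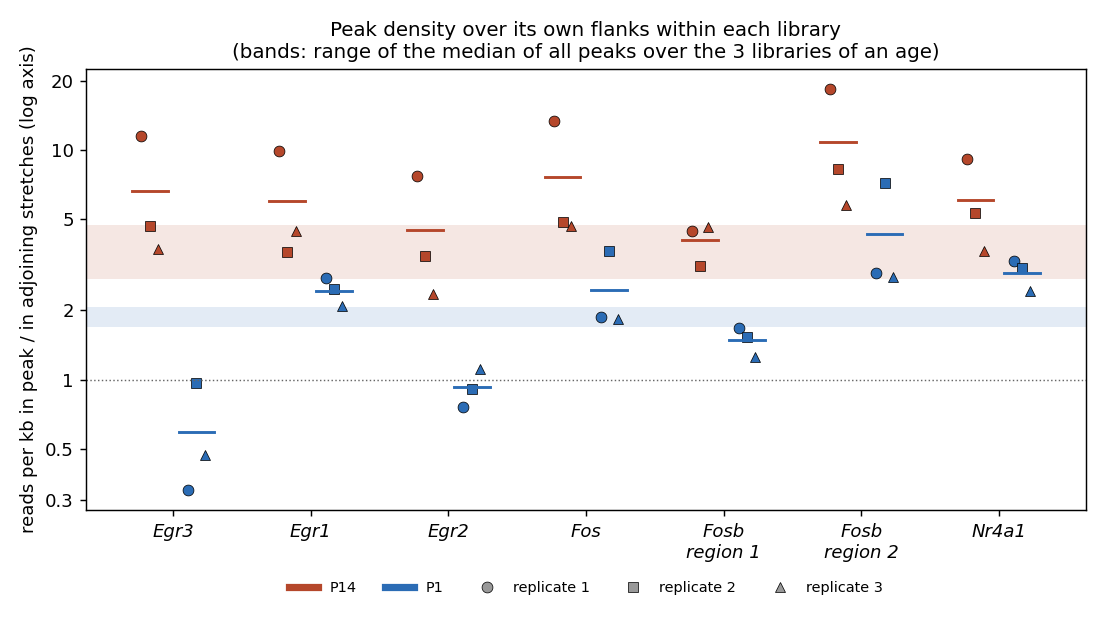
Read density of each peak divided by that of the stretches adjoining it, per library on a log axis, with P14 left of P1 and lines at the arithmetic mean. Shaded bands show where the median of all peaks lies, 2.73 to 4.73 at P14 and 1.7 to 2.07 at P1, and the dotted line marks equal density. All 3 P1 points of Egr3 lie below that line.

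Ranked by reads per kb within its own library, the Egr3 peak stood at percentiles 90.1, 78.4 and 52.5 at P14, against 5.0, 3.5 and 1.0 at P1. The mean difference of 70.5 percentile points was larger than that of 99.99% of peaks, a rank that takes no scaling between libraries. Egr2 stood at percentiles 81.0, 70.7 and 38.0 at P14, against 22.4, 9.7 and 14.3 at P1. Its mean difference of 47.8 points exceeded that of 99.54% of peaks. Fos moved by 31.8 points, Fosb region 2 by 21.8, Egr1 by 18.3, Fosb region 1 by 16.4 and Nr4a1 by 5.8, each with P14 the higher. In both Egr3 and Egr2, P14 replicate 3, the P14 library with the smallest share of reads in peaks, ranked lowest of its age and still above all P1 libraries.

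**Figure D5:**
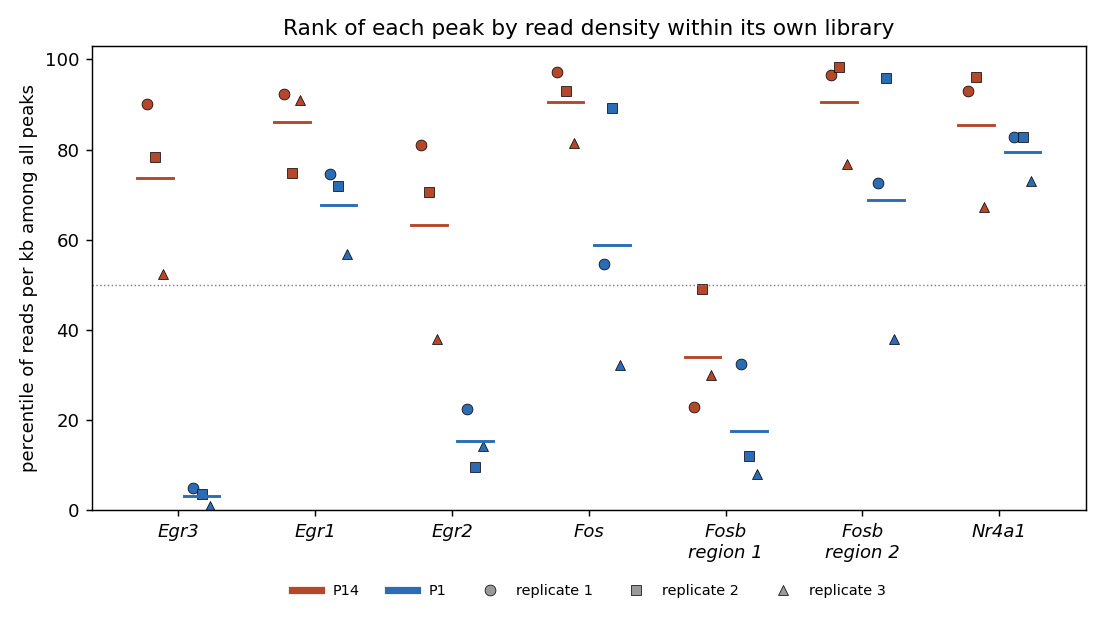
Percentile of each peak by reads per kb among all peaks of the same library, with P14 left of P1, a point per library and lines at the mean. Egr3 lies between 1.0 and 5.0 in the P1 libraries and between 52.5 and 90.1 in the P14 libraries.

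Levels per length give an order of captured reads between the peaks. This is no order of methylation, since the CpG sites in the peaks were not counted. At P14 the order in CPM per kb was Fosb region 2 (14.1 ± 3.44), Fos (13.6 ± 3.42), Nr4a1 (12.5 ± 2.78), Egr1 (12.0 ± 2.05), Egr3 (10.6 ± 2.56), Egr2 (9.24 ± 2.06) and Fosb region 1 (6.58 ± 1.15), all SD with n = 3. No neighbours above Egr2 in that order differed by more than their SDs. At P1 it was Nr4a1 (11.8 ± 1.6), Fosb region 2 (11.1 ± 3.98), Egr1 (10.1 ± 1.44), Fos (9.27 ± 3.24), Fosb region 1 (4.58 ± 0.96), Egr2 (4.33 ± 0.353) and Egr3 (1.91 ± 0.762), all SD with n = 3. The upper 4 overlapped each other, and so did Fosb region 1 and Egr2, while Egr3 lay below Egr2 by more than both SDs. The median tested peak had 8.0 CPM per kb at P14 and 8.16 at P1.

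The 4 members without a row lie, over their whole RefSeq span, inside stretches between peaks. Egr4, an EGR gene known mainly from neurons, lies in a stretch of 38548 bases with 385, 274 and 268 reads at P14, against 245, 227 and 290 at P1. Jun, the partner of FOS proteins, lies in 33844 bases with 249, 273 and 186 reads at P14, against 323, 211 and 218 at P1. Junb lies in 12380 bases with 72, 64 and 57 reads at P14, against 78, 70 and 58 at P1, and Ier2 in 28554 bases with 202, 218 and 145 reads at P14, against 198, 169 and 169 at P1. The reads of the ages overlapped in each of these 4 stretches. In the fit over all regions the log2 changes of these stretches were -0.05 (SE 0.20) at Egr4, -0.41 (SE 0.24) at Jun, -0.42 (SE 0.24) at Junb and -0.25 (SE 0.20) at Ier2, beside a median of -0.29 over all stretches. These stretches are far longer than the genes, so a short methylated part inside them would not be detectable.

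Peaks in the neighbourhood gave a local comparison. In the spans of the 10 genes or within 10 kb of them the table lists 13 peaks that are no members. An unnamed one (chr15:101256185-101257088) lies inside the Nr4a1 span. Of the 13, 12 were tested, with 5 positive and 7 negative log2 changes and a median of -0.10. No listed region has a mean under 10.0 reads per library, so sparser peaks are not seen. Gaps between consecutive stretches, where a peak may have been left out, lie inside Nr4a1 and within 10 kb of Egr4, Fosb and Junb. Beside Egr2, the pair of unnamed peaks before the gene had log2 changes of -0.42 (SE 0.29) and -0.56 (SE 0.29), and the peak named for Ado, which encodes a thiol dioxygenase, had -0.29 (SE 0.31). The unnamed peak 9148 bases beyond the Egr3 span held 29, 16 and 5 reads at P14, against 0, 10 and 5 at P1, with a log2 change of 0.56 (SE 0.68). The 1 of the 12 that passed was an unnamed peak 6043 bases from Fosb on the side of its start (chr7:19316161-19316933), which was lower, with 21, 8 and 3 reads at P14, against 24, 14 and 20 at P1 and a log2 change of -2.07 (SE 0.47, edgeR adjusted p = 0.0287). As with every peak in this fit, that call was lost without P14 replicate 1.

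The wider response was described with 79 further genes, of which 50 are named in the table, with 139 tested peaks. Of the 139, 0 passed with a higher value at P14 and 4 with a lower one, against 0.105% and 2.44% of all peaks. The 10 other AP-1 and NR4A genes with a peak had 17 peaks with 0 calls in edgeR and in DESeq2, 1 peak higher at an unadjusted p under 0.05 (2.35% of all peaks were), and a median log2 change of 0.09. The ages did not overlap, P14 higher, in 4 of these 17 (23.5%), against the 4.77% of all tested peaks given above. In 0 of the 17 they did so with P14 lower. For that direction the share over all peaks was not counted, so the 0 has no baseline and the directions are not compared. The smallest p was at Nr4a2 (Nurr1, chr2:57111202-57112564), with 104, 50 and 27 reads at P14, against 18, 14 and 10 at P1 and a log2 change of 0.91 (SE 0.33, edgeR adjusted p = 0.24). The 20 other early response genes with a peak had 32 tested peaks, again with 0 calls in either tool, 2 higher and 2 lower at an unadjusted p under 0.05 (5.25% of all peaks were lower), and a median of 0.12. Among these 32 the ages did not overlap in 3 with P14 higher (9.38%, against 4.77% of all tested peaks) and in 3 with P14 lower, again without a baseline. There the smallest p was at Sgk1, a kinase induced by serum and glucocorticoids (log2 change -1.82, SE 0.52, edgeR adjusted p = 0.0667).

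Upstream factors and kinases had 88 tested peaks at 17 genes, 0 called higher and 3 lower in edgeR, with a median log2 change of -0.03. Among these 88 the ages did not overlap in 5 with P14 higher (5.68%, against 4.77% of all tested peaks) and in 10 with P14 lower. The share of all peaks with P14 lower was not counted, so the 10 have no baseline and nothing is read from them. DESeq2 called 0 higher and 5 lower of the 88, against 102 higher and 3203 lower of 101253 peaks. At an unadjusted p under 0.05 edgeR had 1 higher and 7 lower, against 2.35% and 5.25% of all peaks. A peak at Elk3, a ternary complex factor that works with SRF, held 15, 11 and 10 reads at P14, against 27, 16 and 24 at P1, and fell by 1.95 on the log2 scale (SE 0.42, edgeR adjusted p = 0.0258). The Rps6ka5 peak, at the gene of the kinase MSK1 that phosphorylates CREB, fell by 2.19 (SE 0.53, edgeR adjusted p = 0.0346) on little depth, with at most 8 reads per P14 library. Of the EGR cofactor genes only Nab1, a corepressor that binds EGR proteins, had a called peak among 2 tested, which held 7, 14 and 11 reads at P14, against 31, 19 and 17 at P1, and fell by 2.03 (SE 0.50, edgeR adjusted p = 0.0357). P1 replicate 1, in which Nab1, Elk3 and Rps6ka5 each had their most reads, was the library with many empty peaks. Without it the log2 change was -1.64 at Nab1, -1.71 at Elk3 and -1.99 at Rps6ka5. Without both replicates 1 it was -1.09 at Nab1, -1.48 at Elk3 and -1.67 at Rps6ka5. Without P14 replicate 1 none of the 4 passed.

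By distance between log2 CPM profiles centred on their mean over the 6 libraries, the peaks most like the Egr3 peak among 38846 named peaks of similar abundance were at Lhx6, a LIM homeobox gene (distance 0.81), Hlx, a homeobox gene (0.89), Spred3 (0.99), Plekhg5 (0.99) and Zfp653 (1.0), where the median peak had 3.08. The Lhx6 peak held 98, 52 and 29 reads at P14, against 5, 12 and 6 at P1, and the Spred3 peak 203, 56 and 41 at P14, against 8, 19 and 11 at P1. Their log2 changes in the fit within peaks were 1.8 (SE 0.37) and 1.72 (SE 0.35), smaller than that of Egr3. The log2 change of Hlx was 2.16 (SE 0.49), below the 2.46 of Egr3 by less than its SE. With Pearson's r in place of the distance, 2 of the 5, Lhx6 and Plekhg5, stayed among the nearest 5, joined by Mnt, Ripply3 and Mn1. The profiles share the same 6 libraries and their depth, and 101 peaks had an r above 0.95, so this likeness is a description.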

How the data were processed

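The authors deposited raw read counts per region, whole numbers not divided by depth or length, for 6 MBD-seq libraries. The build is GRCm38, per the submitters' processing notes, which also list edgeR 3.2.4, MACS, BWA and bedtools but neither roles nor settings. The 221524 lines were collapsed to 213957 distinct regions. Along chromosomes, peaks alternate with the stretches that separate them; which is which was inferred from gene names and shared borders, and from read density for 56202 regions (a density threshold matched 94.6% of the others). All member regions were settled by name. Ages were compared by edgeR's quasi-likelihood test (version 4.0.16, R 4.3.3) with TMM factors, the default filter on total reads, no covariate and Benjamini-Hochberg adjustment, over all 209063 regions and over 96772 peaks. The code was tested on simulated data. The SE is the log2 change divided by the square root of F. Alternatives were DESeq2 1.42.0, RLE factors, no filter, other scalings, the share of reads in peaks as a covariate, a replicate block and libraries left out, keeping the regions tested. The labels call the libraries biological replicates. Same-numbered libraries did not deviate together (correlations from -0.194 to 0.02), so numbers were not used as pairs. Members, gene lists and rules were chosen with earlier results of these data known. Named regions were all member regions, called regions of the wider list, the smallest p of each of its groups, and the 5 peaks most like Egr3 (prior count 2, average log2 CPM within 1). A called region of the wider list is not reported here by name. No sequence of Egr1, Egr3 or Ier2 promoters was used here.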

Additional observations from a re-analysis of the deposited data

How the results depend on the processing

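Of the 7 member peaks, 2 were called within peaks (Egr3 and Egr2) and 0 over all regions. Within peaks, leaving out 1 library gave 0 to 2 calls, with 0 without P14 replicate 1. Leaving out both replicates 1 gave 1, Egr3, at a log2 change of 2.09. With the replicate block, which the numbers do not warrant, 0 passed, at log2 changes of 2.44 and 1.08 in place of 2.46 and 1.11, and no peak of any gene did. With the share of reads in peaks as a covariate 0 passed as well, at 2.03 for Egr3 and 0.77 for Egr2, and the log2 change of Nr4a1 turned to -0.14 from 0.09, within its SE. The share does not overlap between the ages, so this fit separates share from age poorly. The cause was not tested. Scaled to the reads between peaks, which moved the median of all peaks to 1.18, 3 passed, Fos (1.85) with Egr3 (3.73) and Egr2 (2.38). Over all regions, leaving out 1 library gave 0 to 2 calls, DESeq2 2, and leaving out both replicates 1 gave 3, the third being Nr4a1 at 0.56, among 2562 regions higher and 5134 lower. Over all regions the calls, 0 with all libraries, were 353 higher and 2988 lower without P14 replicate 1 and 66 and 0 in DESeq2. Across the 14 alternatives within peaks the log2 change ran from 2.03 to 3.73 at Egr3 and from 0.77 to 2.38 at Egr2, and apart from Nr4a1 no member peak changed sign in either fit. Calls over all peaks, 102 higher and 2362 lower, became 0 and 0 without P14 replicate 1 (5890 peaks at an unadjusted p under 0.05), under the block (6772) and with the covariate (2254), 44 and 340 without P1 replicate 1, and 7273 and 51 when scaled to the reads between peaks. DESeq2 gave 102 and 3203. Depth limits the P1 side most, with 5 to 12 reads per library at Egr3.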
